A study of Rattus norvegicus with 4 samples.

Results

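The *Cyp3a* family was examined in rat liver during inhalational anesthesia with sevoflurane or desflurane. *Cyp3a* genes encode cytochrome P450 enzymes of the endoplasmic reticulum that oxidize many drugs and steroid hormones, and they are among the most abundant drug-metabolizing enzymes of hepatocytes. Their best-known regulator is the pregnane X receptor PXR, encoded by *Nr1i2*, which binds their promoters together with RXR after a drug or steroid has bound to it. In the rat, growth hormone also sets their levels in a sex-dependent manner. All genes whose symbol starts with *Cyp3a* in the expression tables were taken as members, irrespective of their values, which gave 5 of the 16992 genes measured and 5 of the 74 cytochrome P450 genes, namely *Cyp3a2*, *Cyp3a23/3a1*, *Cyp3a18*, *Cyp3a9*, and *Cyp3a62*.

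The data consist of 4 RNA-seq libraries, each from the liver (left lateral lobe) of 1 wild-type male Wistar rat, bought at 6 weeks of age. The sevoflurane 6 h rat inhaled 4.5% sevoflurane for 6 h, and the desflurane 6 h rat inhaled 6% desflurane for 6 h. The sevoflurane control and the desflurane control inhaled the same agent at the same concentration for less than 1 minute, until consciousness was lost, so that every rat had been exposed to an anesthetic and no library is from an untreated animal. All rats had been without food and water before the experiment, and the rats anesthetized for 6 h remained so during that time. Since all rats were killed at the same time of day, the time without food cannot be told apart from the time under anesthesia. With 1 library per condition no difference between these libraries has a replicate check, and no test was made. The difference between the 2 controls is the only measure at hand of how far 2 rats differ in these data. These controls also differ in the agent inhaled, so this difference is not that between rats alone. The study also measured *Cyp2b1*, *Por*, and *Alas1* by qPCR in replicate rats and reported activation by both agents. It measured no *Cyp3a* gene in this way.

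Levels are given in TPM (a transcript abundance that accounts for gene length and scales each library to the same total). A gene was called upregulated or downregulated when the larger of its 2 values exceeded 2 TPM and was more than 2-fold the smaller one. The aligned sequence amounted to between 4.47 and 5.40 Gb per library. Hepatocyte markers were abundant in every library (*Alb*, *Apoa1*, *Ttr*, *Serpina1*, *Fgb*, and *Tat*, with a summed level between 108132 and 123781 TPM). Of these 6 genes, 0 were called with either agent against its own control. Over all genes exceeding 2 TPM in either library, 2.23% were called higher and 3.30% lower with sevoflurane. With desflurane these shares were 2.79% and 1.48%. The 6 markers of pancreatic acinar cells added up to 29.2 TPM in the sevoflurane control and to between 0.176 and 0.497 TPM in the other libraries, where *Prss1*, *Ctrb1*, and *Pnlip* were listed at 0. The 6 markers of Kupffer cells and macrophages added up to 368 TPM in the sevoflurane control, 223 TPM in sevoflurane 6 h, 307 TPM in the desflurane control, and 366 TPM in desflurane 6 h, with *Marco* and *Csf1r* called downregulated by sevoflurane. The 6 acinar markers, the lymphocyte marker *Cd79b*, and the enterocyte marker *Cdh17* were also called downregulated by sevoflurane, and *Cdh17* was called upregulated by desflurane. Of these genes only *Marco* was still called in sevoflurane 6 h against the desflurane control. *Cd79b* was 6.63-fold lower there, but from 1.99 TPM, below the limit. All 6 acinar markers were also called lower in the desflurane control than in the sevoflurane control. *Cdh17* was at 4.12 TPM in the sevoflurane control and 0.612 TPM in the desflurane control. Desflurane 6 h was 1.05-fold for *Cdh17* against the sevoflurane control. Summed levels of the other markers ranged from 167.5 to 197 TPM for 5 endothelial genes, from 69.7 to 86.9 TPM for 5 stellate cell genes, from 11.2 to 17.3 TPM for 4 cholangiocyte genes, from 4.27 to 7.86 TPM for 5 enterocyte genes (with *Alpi* at 0 throughout), and from 2.57 to 6.01 TPM for 6 lymphocyte genes. The part of these cells in the results was not tested. In whole liver RNA, fewer cells of a type and less RNA per cell cannot be told apart.

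All 5 genes lie on chromosome 12 of rn6. *Cyp3a18* is on the plus strand at chr12:10636294-10684273. *Cyp3a2* (chr12:10716427-11677818) and *Cyp3a23/3a1* (chr12:11053888-11733102) are both on the minus strand. *Cyp3a62* (plus strand, chr12:18679809-18709394) and *Cyp3a9* (minus strand, chr12:19074288-19114491) lie farther along the chromosome. The spans of *Cyp3a2* and *Cyp3a23/3a1*, 961 and 679 kb, overlapped by 624 kb on the same strand, and 12 other annotated genes lie within the region that both spans cover together. In the RefSeq annotation of the assembly GRCr8, which matched 5 of 5 members by symbol or synonym, the same genes are 22.1 and 28.9 kb long. The rn6 spans therefore cover much more than 1 copy of each gene, and the division of reads between this pair is uncertain. Their summed level is given beside the separate values for this reason.

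The promoters of the 4 genes that differed most in their response are shown here because *Cyp3a2* and *Cyp3a23/3a1* are nearly alike in this region and were not alike in their levels. Each sequence is from RefSeq (GRCr8, chromosome 12), runs 5′ to 3′ on the strand of the gene, and covers 250 bases before the start site and 50 bases after it. Capitals mark AGTTCA or its complement TGAACT, the 6-base site to which PXR and related nuclear receptors bind in pairs.
Cyp3a2 (minus strand, chr12:14343808-14344107): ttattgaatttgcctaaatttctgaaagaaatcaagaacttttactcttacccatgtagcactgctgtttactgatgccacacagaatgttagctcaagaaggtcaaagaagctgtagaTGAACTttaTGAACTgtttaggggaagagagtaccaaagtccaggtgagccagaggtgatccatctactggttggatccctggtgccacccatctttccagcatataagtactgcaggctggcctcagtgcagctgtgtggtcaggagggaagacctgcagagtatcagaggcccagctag
Cyp3a23/3a1 (minus strand, chr12:14398754-14399053): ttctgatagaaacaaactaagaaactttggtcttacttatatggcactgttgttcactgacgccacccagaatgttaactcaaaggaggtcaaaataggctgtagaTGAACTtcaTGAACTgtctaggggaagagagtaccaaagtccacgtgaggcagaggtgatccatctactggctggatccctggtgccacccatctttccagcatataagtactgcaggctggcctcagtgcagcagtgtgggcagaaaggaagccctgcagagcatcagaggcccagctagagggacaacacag
Cyp3a18 (plus strand, chr12:13994062-13994361): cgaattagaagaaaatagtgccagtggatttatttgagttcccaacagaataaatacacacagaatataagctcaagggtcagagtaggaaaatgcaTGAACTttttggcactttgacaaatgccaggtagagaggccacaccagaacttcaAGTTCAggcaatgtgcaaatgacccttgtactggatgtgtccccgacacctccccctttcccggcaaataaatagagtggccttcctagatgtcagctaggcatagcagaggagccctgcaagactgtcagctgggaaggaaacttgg
Cyp3a9 (minus strand, chr12:21960111-21960410): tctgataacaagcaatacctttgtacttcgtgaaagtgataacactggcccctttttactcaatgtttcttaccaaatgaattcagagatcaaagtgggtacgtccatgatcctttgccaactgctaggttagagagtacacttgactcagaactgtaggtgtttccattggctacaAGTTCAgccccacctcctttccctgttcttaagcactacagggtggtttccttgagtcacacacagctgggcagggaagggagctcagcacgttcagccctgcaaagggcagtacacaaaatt

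The *Cyp3a2* and *Cyp3a23/3a1* promoters were 89.3% identical over 281 aligned bases, whereas the other pairs of members were between 61.5% and 76.1% identical. Both contained AGTTCA as a direct repeat with 3 bases between its copies (the arrangement known as DR3), read here on the opposite strand as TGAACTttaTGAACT in *Cyp3a2*, beginning 131 bases before the start site, and as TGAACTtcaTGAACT in *Cyp3a23/3a1*, beginning 144 bases before it. Among the promoters of 27457 genes, searched on both strands, this exact repeat occurred in 2, and these were *Cyp3a2* and *Cyp3a23/3a1* themselves. A single AGTTCA was common and occurred in 15.6% of all genes. *Cyp3a18* had 2 copies and *Cyp3a9* and *Cyp3a62* had 1 copy each, with no DR3. The related site AGGTCA, present in 16.9% of all genes, occurred once in *Cyp3a2* and once in *Cyp3a23/3a1* and in 0 of the other 3 members. The direct repeat of AGTTCA with 4 bases between its copies (DR4) was found in 4 genes, and no member was among them. The everted repeat of AGTTCA with 6 bases (ER6) was found in 0 genes. In DR3, DR4, and ER6 only AGTTCA itself was searched, so a repeat with AGGTCA or a variant as a copy would be missed. These matches describe letters in a window and not binding.

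*Cyp3a2*, a steroid hydroxylase that predominates in adult male rats, was the most abundant member in every library. Its level was 2599 TPM in the sevoflurane control, 2437 TPM in sevoflurane 6 h, 1566.5 TPM in the desflurane control, and 2172 TPM in desflurane 6 h. The highest and lowest values were those of the 2 controls, and both anesthetized rats lay between them. The change from the respective control was 0.937-fold with sevoflurane and 1.39-fold with desflurane, neither of which met the 2-fold limit. *Cyp3a2* held rank 46 to 62 among all genes and made up 73.2% of the family in the sevoflurane control, 49.8% in sevoflurane 6 h, 78.7% in the desflurane control, and 64.5% in desflurane 6 h.

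*Cyp3a23/3a1*, the form classically induced in rat liver by dexamethasone and other PXR ligands, had the widest range of the family, with a 6.92-fold difference between its lowest and highest library. Its level was 451 TPM in the sevoflurane control, 1836 TPM in sevoflurane 6 h, 265 TPM in the desflurane control, and 571 TPM in desflurane 6 h. Both anesthetized rats exceeded both controls, and sevoflurane 6 h was far above the other 3 libraries. The gene was upregulated 4.07-fold by sevoflurane, and only 37 of the 9754 genes that exceeded 2 TPM in either library had a larger fold change. The call was lost (1.53-fold) when the assembled rows overlapping its span on the same strand were added. These 12 rows held 4377 TPM in the sevoflurane control. They count reads again and can include reads of other genes in the span, so the value is not that of this gene alone. With desflurane it was upregulated 2.15-fold, with 208 of 9855 genes above it, but the value was 1.27-fold when the sevoflurane control served as the reference. Sevoflurane 6 h was still 3.22-fold above desflurane 6 h when both anesthetized rats were compared directly. The desflurane call was close to the limit, and median-of-ratios scaling gave 1.97-fold. Removing rRNA genes and scaling the remaining annotated rows to a common total gave 1.99-fold. The TPM of this gene was also high for its read coverage, with a ratio of FPKM to coverage 1.73, 1.82, 1.28, and 1.29 times that typical of the library (in the order above). Rescaled from coverage alone, the fold changes were 3.86 with sevoflurane and 2.14 with desflurane.

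**Figure D1:**
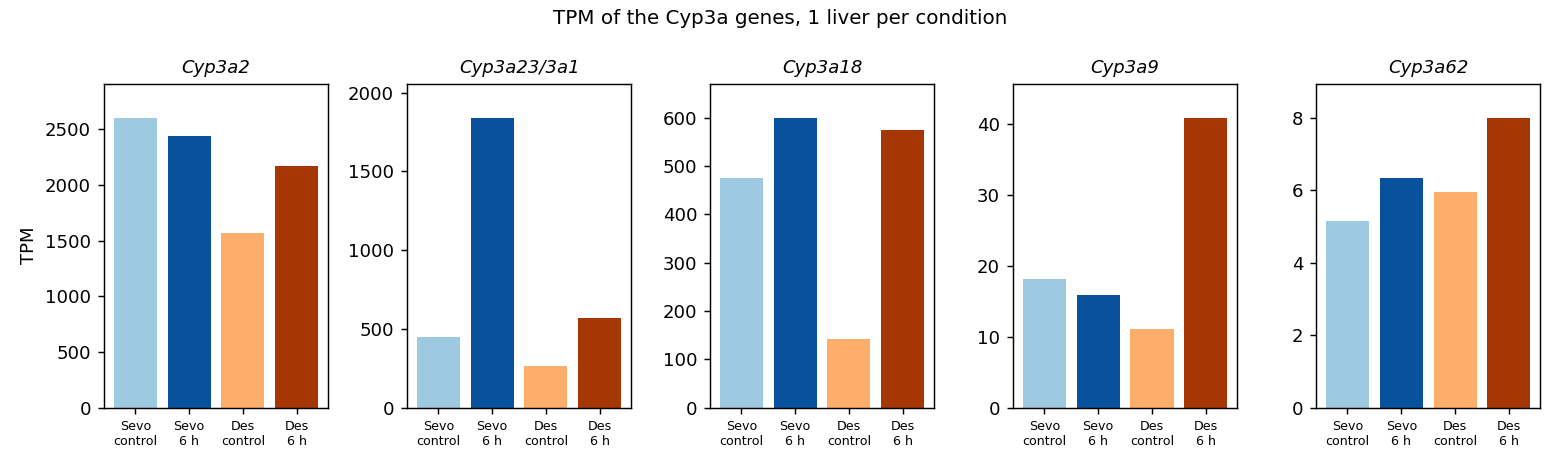
Level of each *Cyp3a* gene in TPM (linear vertical axes starting at 0, 1 panel per gene with its own scale) in the 4 libraries, with 1 bar per library and no error bars because each condition has 1 rat. *Cyp3a23/3a1* stands out in sevoflurane 6 h (1836 TPM), *Cyp3a18* is low in the desflurane control (142 TPM), and *Cyp3a9* is high in desflurane 6 h (40.9 TPM).

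In the controls, the ratio of *Cyp3a2* to *Cyp3a23/3a1* was 5.77 for sevoflurane and 5.90 for desflurane, values that were close although the summed level of the pair differed between these rats (3050 and 1832 TPM). The ratio was 1.33 in sevoflurane 6 h and 3.81 in desflurane 6 h. The pair together reached 4273 TPM in sevoflurane 6 h and 2742 TPM in desflurane 6 h, or 1.40-fold and 1.497-fold over the respective control. When the controls were exchanged, the pair sum was 2.33-fold for sevoflurane and 0.899-fold for desflurane. The 12 other genes of this region stayed between 0.711-fold and 1.44-fold with sevoflurane and between 0.768-fold and 1.38-fold with desflurane. The limit was met by 0 of them. Over all genes exceeding 2 TPM in either library, 2.23% were called higher and 3.30% lower with sevoflurane. With desflurane the shares were 2.79% and 1.48%, so 0 of so few genes is near these shares.

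*Cyp3a18*, another form with higher levels in males, differed most between the controls. Its level was 476 TPM in the sevoflurane control, 599 TPM in sevoflurane 6 h, 142 TPM in the desflurane control, and 574 TPM in desflurane 6 h. The desflurane control was the low library, and the other 3 were close to each other. *Cyp3a18* was upregulated 4.06-fold by desflurane against its own control, a fold change exceeded by 48 of 9855 genes. The value was 1.21-fold against the sevoflurane control, and the controls themselves differed by 3.36-fold. With sevoflurane the fold change was 1.26 against its own control and 4.23 against the desflurane control. The levels of the anesthetized rats differed by 1.04-fold, so the call with desflurane and the lack of one with sevoflurane rested on which control was used.

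*Cyp3a9*, a form with higher levels in females, was expressed at a low level, 18.2 TPM in the sevoflurane control, 15.9 TPM in sevoflurane 6 h, 11.2 TPM in the desflurane control, and 40.9 TPM in desflurane 6 h. Desflurane 6 h was the high library, and the other 3 lay between 11.2 and 18.2 TPM. *Cyp3a9* was upregulated 3.65-fold by desflurane and was the only member called with this agent against both controls, with 2.25-fold against the sevoflurane control. Sevoflurane gave 0.874-fold against its own control and 1.42-fold against the desflurane control. Between the anesthetized rats, desflurane 6 h was 2.58-fold higher.

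*Cyp3a62*, which is best known from the intestine, had the lowest level. It was measured at 5.15 TPM in the sevoflurane control, 6.32 TPM in sevoflurane 6 h, 5.96 TPM in the desflurane control, and 7.98 TPM in desflurane 6 h. All 4 values lay within a narrow range, with 1.23-fold for sevoflurane and 1.34-fold for desflurane. It was the only member with a higher level in the desflurane control than in the sevoflurane control (1.16-fold). Read coverage was 9.26 to 13.4 for this gene, compared with 2933 to 4671 for *Cyp3a2*, so its level is the least precisely measured of the family.

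Against its own control, sevoflurane upregulated 1 of 5 members (*Cyp3a23/3a1*) and downregulated 0, where 2.23% and 3.30% of all genes exceeding 2 TPM in either library were called in these directions. Desflurane upregulated 3 of 5 members (*Cyp3a18*, *Cyp3a9*, and *Cyp3a23/3a1*) and downregulated 0, compared with 2.79% and 1.48% of all genes. Exchanging the controls changed these lists. Sevoflurane 6 h against the desflurane control gave 2 members upregulated (*Cyp3a23/3a1* and *Cyp3a18*) and 0 downregulated, with 2.52% and 2.59% of all genes. Desflurane 6 h against the sevoflurane control gave 1 member upregulated (*Cyp3a9*) and 0 downregulated, with 2.84% and 1.58% of all genes. The members called with an agent irrespective of the control were therefore *Cyp3a23/3a1* for sevoflurane and *Cyp3a9* for desflurane.

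The 2 controls differed in this family. The desflurane control was lower for 4 of 5 members, and 1 of them (*Cyp3a18*) met the 2-fold limit, whereas 1.17% of all genes were called lower and 1.17% called higher, the latter including 0 members. *Cyp3a2*, *Cyp3a23/3a1*, and *Cyp3a9* were lower by similar factors, 1.66-fold, 1.70-fold, and 1.62-fold. Between the anesthetized rats, desflurane 6 h had 1 member higher (*Cyp3a9*) and 1 member lower (*Cyp3a23/3a1*), compared with 2.76% and 1.17% of all genes. The median log2 difference over the members (with 1 TPM added to each value) was 0.25 for sevoflurane and 1.10 for desflurane against their own controls and -0.73 between the controls, compared with 0.05, 0.11, and -0.03 over all genes tested.

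**Figure D2:**
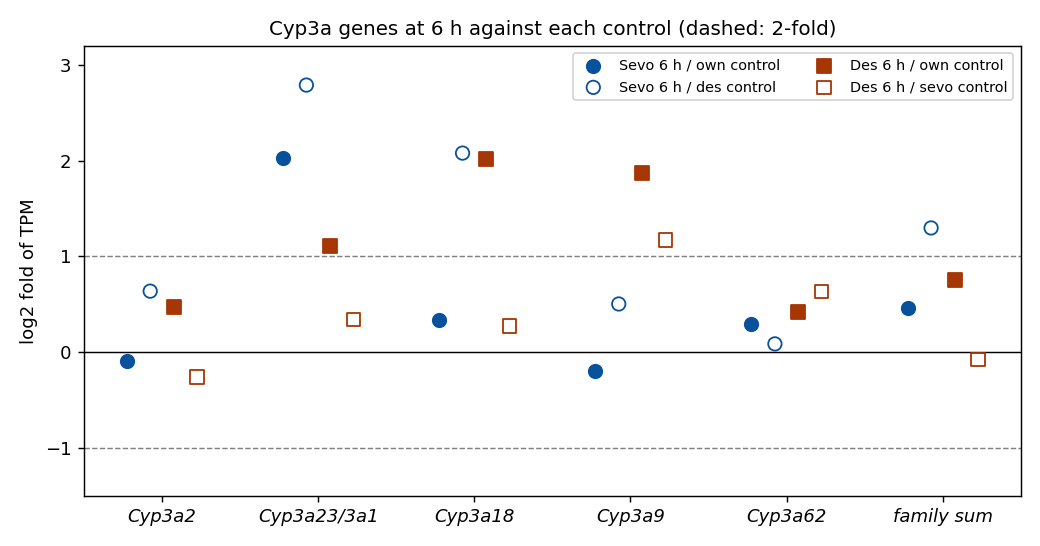
Log2 fold change of TPM (vertical axis) of each *Cyp3a* gene and of the family sum in the 2 anesthetized rats, with circles for sevoflurane, squares for desflurane, dashed lines at the 2-fold limit, filled symbols for the agent's own control and open symbols for the control of the other agent, 1 value per symbol and no error bars. For *Cyp3a23/3a1* with sevoflurane both symbols lie beyond the 2-fold limit (4.07-fold and 6.92-fold), as do both for *Cyp3a9* with desflurane (3.65-fold and 2.25-fold), while *Cyp3a18* moves across the limit when the control is exchanged.

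The summed level of the family was 3549 TPM in the sevoflurane control, 4894 TPM in sevoflurane 6 h, 1991 TPM in the desflurane control, and 3366 TPM in desflurane 6 h. Sevoflurane 6 h exceeded both controls, but desflurane 6 h lay between them. The sum was 1.38-fold with sevoflurane and 1.69-fold with desflurane against the own control, and 2.46-fold and 0.948-fold against the control of the other agent. The 2 controls differed by 1.78-fold, more than either agent differed from its own control. Against the own control the increases in TPM were nearly equal, 1345 TPM with sevoflurane and 1375 TPM with desflurane, but their composition was not. *Cyp3a23/3a1* gained 1386 TPM with sevoflurane, or 103% of the family change, while *Cyp3a2* dropped by 162 TPM. With desflurane, *Cyp3a2* contributed 605 TPM (44.0%), *Cyp3a18* 433 TPM (31.5%), and *Cyp3a23/3a1* 305 TPM (22.2%). *Cyp3a9*, despite its fold change, added only 29.7 TPM. With the controls exchanged, the family changes were 2903 TPM with sevoflurane and -183 TPM with desflurane, and *Cyp3a2* rose by 870 TPM with sevoflurane. The shares of *Cyp3a2* and *Cyp3a23/3a1* also depend on the uncertain division of reads between them.

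**Figure D3:**
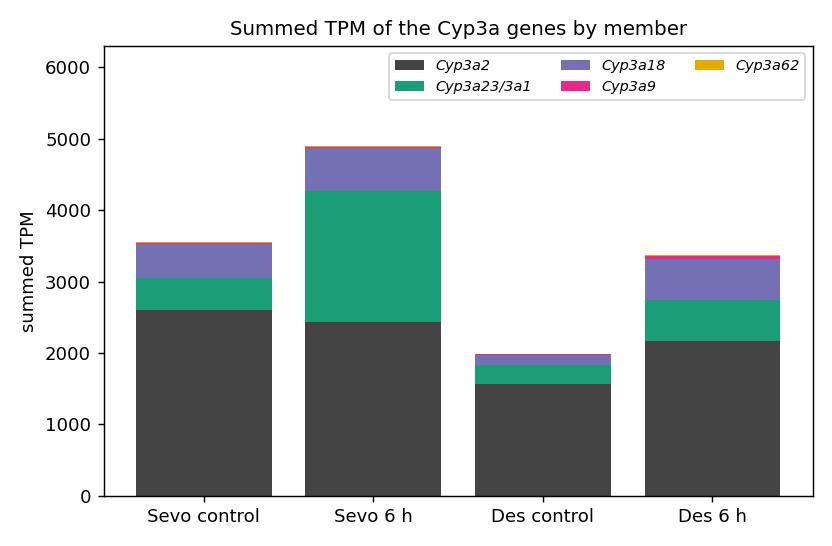
Summed TPM of the family (linear vertical axis from 0) in the 4 libraries, stacked by gene, 1 library per bar and no error bars. The bar of sevoflurane 6 h is the highest (4894 TPM) with a large *Cyp3a23/3a1* segment, and the bar of the desflurane control is the lowest (1991 TPM).

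The family made up 14.8% of the TPM of all 74 cytochrome P450 genes in the sevoflurane control, 18.0% in sevoflurane 6 h, 9.32% in the desflurane control, and 12.6% in desflurane 6 h. *Cyp2b*, a family induced mainly through the nuclear receptor CAR, had larger fold changes. Its 6 genes added up to 725 TPM and 698 TPM in the sevoflurane and desflurane controls, a pair of nearly equal values, and to 3991 TPM and 2858 TPM after 6 h, which was 5.50-fold with sevoflurane and 4.09-fold with desflurane. *Cyp2c*, the most abundant family, was at 10072 and 11072 TPM in the controls and at 9798 and 9928 TPM after 6 h, or 0.973-fold and 0.897-fold. Against the own control, the fold change of the *Cyp3a* sum lay between those of these families with both agents. With desflurane 6 h against the sevoflurane control it was 0.948-fold, below the 0.986-fold of *Cyp2c*.

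Among 14 regulators of *Cyp3a* transcription, 0 were called upregulated and 3 downregulated by sevoflurane, and 2 upregulated and 0 downregulated by desflurane. Over all genes the shares were 2.23% and 3.30% with sevoflurane and 2.79% and 1.48% with desflurane. *Nr1i2*, which encodes PXR, was at 67.7 TPM in the sevoflurane control, 121 TPM in sevoflurane 6 h, 54.2 TPM in the desflurane control, and 153 TPM in desflurane 6 h. Both anesthetized rats exceeded both controls, with 1.79-fold for sevoflurane and a call of 2.82-fold for desflurane. With the controls exchanged, *Nr1i2* was 2.24-fold for sevoflurane and 2.26-fold for desflurane, both called. *Nr1i3*, encoding CAR, was downregulated by sevoflurane from 52.9 to 22.7 TPM, while it was at 37.3 and 42.1 TPM with desflurane. Sevoflurane 6 h was 0.610-fold for *Nr1i3* against the desflurane control, which was not called. *Foxa2*, a liver transcription factor, was downregulated by sevoflurane from 30.5 to 12.7 TPM and was at 44.5 and 22.9 TPM with desflurane, a 1.95-fold difference just short of the limit. *Nr0b2*, encoding the corepressor SHP, was downregulated 2.39-fold by sevoflurane (43.8 to 18.4 TPM) and was at 16.6 and 23.5 TPM with desflurane, so its call rested on the high sevoflurane control. *Ppargc1a*, a coactivator of nuclear receptors, was upregulated 4.64-fold by desflurane (2.90 to 13.5 TPM) and was at 4.23 and 5.08 TPM with sevoflurane. The median log2 difference of the list was -0.04 and 0.18, compared with 0.05 and 0.11 over all genes.

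Cytochrome P450 enzymes receive electrons from the reductase encoded by *Por*, and their heme depends on *Alas1*, the rate-limiting enzyme of heme synthesis in the liver. Of 7 genes for electron transfer and heme, these 2 were upregulated by both agents (2.23% of all genes with sevoflurane, 2.79% with desflurane) and 0 were downregulated (3.30% and 1.48%). *Por* was at 144 TPM in the sevoflurane control, 642 TPM in sevoflurane 6 h, 119 TPM in the desflurane control, and 415 TPM in desflurane 6 h, a 4.46-fold and a 3.48-fold increase. *Alas1* was at 98.2, 433, 100.2, and 304 TPM in the same order, a 4.41-fold and a 3.04-fold increase. For both genes the controls were close and the anesthetized rats were above them. For *Cyp3a2* the anesthetized rats lay between the controls. For *Cyp3a18* they were above both controls, but the controls differed by 3.36-fold.

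Of 16 measured targets of PXR or CAR outside *Cyp3a*, sevoflurane upregulated 5 (2.23% of all genes) and desflurane 4 (2.79%), and 0 were downregulated by either (3.30% and 1.48%). *Cyp2b1* increased from 17.8 to 1632 TPM with sevoflurane and from 16.1 to 1090 TPM with desflurane. *Cyp2b2* increased from 153 to 1893 TPM and from 165 to 1271 TPM. *Abcb1a*, which encodes the drug efflux pump P-glycoprotein, was upregulated 2.33-fold and 2.83-fold, and the carboxylesterase *Ces2c* 3.29-fold and 2.78-fold. *Abcc3*, an efflux transporter of conjugates, was at 5.96 TPM in the sevoflurane control, 16.1 TPM in sevoflurane 6 h, 11.1 TPM in the desflurane control, and 20.2 TPM in desflurane 6 h. It was called with sevoflurane (2.70-fold) and not with desflurane (1.82-fold), and with the controls exchanged the values were 1.44-fold and 3.39-fold. The median log2 difference of the list was 0.65 with sevoflurane and 0.44 with desflurane, above the values over all genes.

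**Figure D4:**
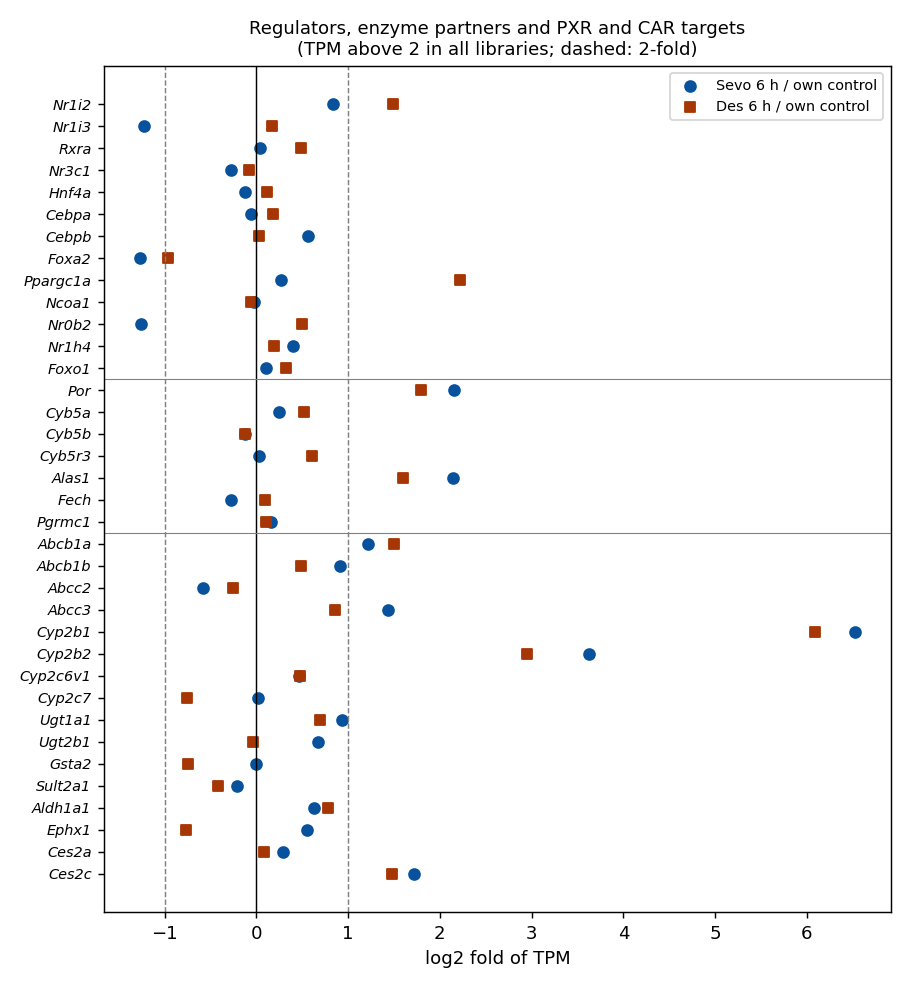
Log2 fold change of each 6 h library over its own control (horizontal axis, 1 value per agent, no error bars) for the 36 regulators, electron transfer and heme genes, and PXR or CAR targets that exceeded 2 TPM in all 4 libraries. *Cyp2b1* and *Cyp2b2* lie farthest to the right for both agents, *Por* and *Alas1* lie beyond the 2-fold limit for both agents, and *Nr1i3*, *Foxa2*, and *Nr0b2* lie below it for sevoflurane.

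Since several *Cyp3a* genes depend on growth hormone, 16 genes of that axis or with sex-dependent expression were examined. Sevoflurane upregulated 1 and downregulated 3 of them, compared with 2.23% and 3.30% of all genes, and desflurane upregulated 1 and downregulated 2, compared with 2.79% and 1.48%. *Cish*, a direct target of growth hormone signaling through STAT5, was downregulated 6.04-fold by sevoflurane (21.9 to 3.63 TPM) and 8.34-fold by desflurane (70.0 to 8.40 TPM). *Cyp2c11*, the typical male P450, was at 1457 TPM in the sevoflurane control, 1245 TPM in sevoflurane 6 h, 544 TPM in the desflurane control, and 1146 TPM in desflurane 6 h. As with *Cyp3a18*, the desflurane control was the low library and the desflurane call (2.11-fold) depended on it. *Hsd3b5*, also male-predominant, was downregulated by sevoflurane from 150 to 68.6 TPM and was at 63.1 and 87.9 TPM with desflurane. Sevoflurane 6 h was 1.09-fold for *Hsd3b5* against the desflurane control. *Bcl6*, a repressor with higher levels in males, was at 50.7, 16.6, 5.87, and 8.49 TPM in the order above, with a call for sevoflurane (3.06-fold lower). The controls differed by 8.64-fold, and against the desflurane control sevoflurane 6 h was called 2.82-fold higher. *Cux2*, a repressor with higher levels in females, was at 0.837, 9.59, 9.23, and 15.9 TPM, and only the sevoflurane control was low. *A1bg*, a female-predominant gene, was at 0.353, 0.613, 5.01, and 2.26 TPM, and was called downregulated by desflurane. Between the controls, 5 of the 16 genes were called higher and 3 lower in the desflurane control (1.17% of all genes in each direction), and the median log2 difference of the list was 0.12. Against the own control the median was -0.35 for sevoflurane and -0.18 for desflurane.

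*Cyp3a* enzymes are most abundant around the central vein. Of 8 pericentral genes, 0 were called with sevoflurane (2.23% of all genes higher and 3.30% lower), and with desflurane 1 was upregulated (2.79%) and 0 downregulated (1.48%). The gene called was *Cyp1a2*, with 996 TPM in the sevoflurane control, 909 TPM in sevoflurane 6 h, 589 TPM in the desflurane control, and 1214 TPM in desflurane 6 h, a 2.06-fold increase. The desflurane control again had the lowest level. The median log2 difference of the pericentral genes was -0.10 and 0.15 with the respective agents and -0.42 between the controls.

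Of 9 genes induced by fasting, sevoflurane upregulated 3 (2.23% of all genes) and desflurane 6 (2.79%), and 0 were downregulated (3.30% and 1.48%). *Igfbp1* was upregulated 2.13-fold by sevoflurane (35.1 to 74.7 TPM) and 17.2-fold by desflurane (7.94 to 136 TPM), and *Cpt1a*, the entry step of fatty acids into mitochondria, 2.64-fold and 4.37-fold. *Fgf21* was upregulated by sevoflurane (12.2 to 121 TPM) and was at 41.3 and 24.5 TPM with desflurane. The gluconeogenic genes *Pck1* and *G6pc* were upregulated by desflurane, *Pck1* from 414 to 951 TPM and *G6pc* from 114 to 554 TPM, and were at 1079 and 980 TPM and at 206 and 223 TPM with sevoflurane. *Angptl4* and *Ppargc1a* were upregulated 2.68-fold and 4.64-fold by desflurane. For *Pck1*, *G6pc*, and *Igfbp1* the desflurane control was the lowest library, as for *Cyp3a18*. The list's median log2 difference was 0.22 with sevoflurane, 1.39 with desflurane, and -0.32 between the controls. Desflurane 6 h against the sevoflurane control was 2.70-fold for *G6pc* and 3.89-fold for *Igfbp1*, both called, and 0.881-fold for *Pck1*. That comparison called 6 of the 9 genes upregulated and 0 downregulated (2.84% and 1.58% of all genes), with a median of 1.43. Sevoflurane 6 h against the desflurane control gave 4 upregulated and 1 downregulated (2.52% and 2.59%), with a median of 0.96. The part of feeding in the *Cyp3a* levels was not tested.

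The members differed in the shape of their values over the 4 libraries. By the distance between their log2 TPM, each centred on its own mean, the closest pair was *Cyp3a2* and *Cyp3a62* (0.772) and the most distant was *Cyp3a23/3a1* and *Cyp3a9* (2.28), although a small distance is also reached by 2 genes that change little. Among 9131 genes exceeding 2 TPM in all libraries, those most like the family sum included *Chchd4* (0.146), *Slco1a2* (0.182), *Fam174c* (0.195), and *Mcrip2* (0.229). *Slco1a2*, an organic anion uptake transporter, was at 176, 254, 117, and 177 TPM in the order of sevoflurane control, sevoflurane 6 h, desflurane control, and desflurane 6 h. *Chchd4*, *Fam174c*, and *Mcrip2* were between 2.98 and 13.3 TPM. The gene most like *Cyp3a23/3a1* was *Sds*, a serine dehydratase, at 28.8, 109, 20.2, and 44.6 TPM (distance 0.336), followed by *Card19* (0.717) and *Unc5b* (0.805).

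*Cyp3a18* was most like *Mt2A*, a metallothionein (0.315, at 1245, 1424, 455, and 1583 TPM), *Usp2* (0.329), and *Rdh16* (0.530), all with their lowest value in the desflurane control. *Cyp3a9* was most like *Ackr2* (0.289), *Ccdc77* (0.331), and *Slc22a5*, a carnitine transporter (0.350, at 8.38, 10.1, 5.54, and 21.7 TPM), all with their highest value in desflurane 6 h. *Cyp3a2* was most like *Zdhhc12* (0.0533), *Pold2* (0.0744), and *Snrnp35* (0.0898). Genes close to *Cyp3a62* included *Parp6* (0.00722) and *Zbtb11os1* (0.0325). With 4 libraries, many of the 9135 genes compared are near any given pattern.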

How the data were processed

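RNA-seq of liver from 4 rats, 1 per condition, was analysed. Conditions were taken from the labels and the methods of the study. The authors trimmed the reads with sickle, mapped them to rn6 with HISAT2, sorted them with SAMtools, and quantified the refGene annotation with StringTie. The labels and the methods name different stranded total RNA kits. The deposited tables give coverage per gene (a signal not normalized for depth), FPKM values normalized for depth by the authors' StringTie run, and TPM values, a signal scaled so that the assembled rows add up to 1000000. The annotated rows, on the same scale, add up to between 779824 and 813454. Read counts were not used here, so the counting error of a level is unknown.

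Annotated rows longer than 200 bp were kept and summed by symbol. Each member had 1 row in every library. A call required more than 2 TPM in the higher state and more than a 2-fold difference, as in the study. Percentages of all genes are over genes above 2 TPM in at least 1 of the 2 libraries compared. No test was made. With 1 library per condition, a single agent leaves no spread among samples to test against, and both agents together against both controls were not tested. All members were named, and from the lists with a role (not the cell type markers) the members called with either agent against its own control. Of other P450 families, summed levels of *Cyp2b* and *Cyp2c* were given. The 5 genes closest to the family sum and the 3 closest to each member were also chosen, of which a few are not reported here. The members and lists were chosen with earlier results of these data known. The target *Slco1a4* and the cholangiocyte marker *Krt7* were not analysed here.

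Promoters and gene lengths were from RefSeq (GRCr8). The 3 further *Cyp3a* symbols of GRCr8 were not analysed here. Alternatives covered the control, scaling, rRNA, FPKM, coverage, the length filter, assembled rows, the limits of the call, and a pseudocount. Calculations used Python 3.11.15, numpy 2.4.6, pandas 2.3.3, Biopython 1.88, and matplotlib 3.10.9, and the code of the calling rule, though not its error rate, was checked on simulated data.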

Additional observations from a re-analysis of the deposited data

Results flagged for a closer look

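*Cyp3a2* and *Cyp3a9* were on opposite sides of their own controls with the 2 agents. *Cyp3a2* was 0.937-fold with sevoflurane and 1.39-fold with desflurane, and *Cyp3a9* was 0.874-fold with sevoflurane and 3.65-fold with desflurane. Whether the agents differ in this was not tested, and each direction rests on 1 rat. When each anesthetized rat was set against the control of the other agent, *Cyp3a2* was 1.56-fold with sevoflurane and 0.836-fold with desflurane, the opposite order, whereas *Cyp3a9* was 1.42-fold and 2.25-fold.

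A second signal at the *Cyp3a2* and *Cyp3a23/3a1* locus was in the rows StringTie assembled, which the comparisons did not use. The assembled row at the right end of *Cyp3a23/3a1* (rn6, minus strand, chr12:11653702-11733102) had 3970 TPM in the sevoflurane control, 4395 TPM in sevoflurane 6 h, 2529 TPM in the desflurane control, and 3683 TPM in desflurane 6 h. In sevoflurane 6 h the row ended at 11733144. The anesthetized rats exceeded their own controls, and the read coverage of the row was 268, 275, 180, and 253 in the same order. Its TPM was thus far above its coverage, whereas annotated rows typically had between 0.534 and 0.593 TPM per unit of coverage. The row begins within the span of *Cyp3a2*, which ends at 11677818, so it cannot be assigned to *Cyp3a23/3a1* alone. The rows at the left end (chr12:11053888-11082742 in the sevoflurane rats) had 233 TPM in the sevoflurane control and 975 TPM in sevoflurane 6 h, whereas the desflurane control had 2 rows there of 136 and 146 TPM and desflurane 6 h 1 row of 357 TPM. Assembled rows hold the same reads as the annotated rows, so the values cannot be added as separate molecules.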

How the results depend on the processing

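Among the alternatives, 16 of 18 fold changes of the family sum and 89 of 100 of single members stayed within 1.5 times of the reported value. Among called members 0 changed direction. Values that were not called did change direction. With the controls exchanged these were the desflurane family sum, *Cyp3a2* with both agents, and *Cyp3a9* with sevoflurane (1.42-fold). With the mean of both controls these were *Cyp3a2* (1.17-fold) and *Cyp3a9* (1.08-fold), both with sevoflurane. With assembled rows added, *Cyp3a62* with desflurane was 0.910-fold. The length filter could not move any of them, since each member has 1 long row, and downregulated members numbered 0 throughout. When the controls were exchanged, sevoflurane called 2 members upregulated in place of 1, desflurane called 1 in place of 3, and the family sum was 2.46-fold with sevoflurane and 0.948-fold with desflurane. Against the mean of both controls, desflurane called 1 member, *Cyp3a9*, and *Cyp3a18* was 1.94-fold with sevoflurane and 1.86-fold with desflurane. Adding the assembled rows that overlap each member on its strand left sevoflurane with 0 members upregulated (*Cyp3a23/3a1* 1.53-fold). This counts reads more than once and, for *Cyp3a2* and *Cyp3a23/3a1*, can add reads of other genes in the span. Median-of-ratios scaling, scaling the annotated rows without rRNA to a common total, and adding the assembled rows each left desflurane with 2 members, since *Cyp3a23/3a1* was below 2-fold. The alternative based on coverage was chosen after seeing the data. No paired analysis was possible because the groups compared share only 1 replicate number, and a fit over both agents together was not run. No library was left out, since each is the only one of its condition. The depth limits *Cyp3a62* most. For every member the difference between the 2 controls is the only value at hand on how far rats differ. It is a single difference and not a spread, and the controls also differ in the agent inhaled.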
